A study of Homo sapiens with 8 samples.

Results

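miR-210 is the microRNA most often used as a readout of hypoxia signalling, and both of its mature strands, miR-210-3p and miR-210-5p, were followed in small RNA libraries of 786-O cells. The members were the 2 entries named hsa-miR-210-3p and hsa-miR-210-5p in a count table of 3112 miRNAs, of which 1482 are known and 1630 are predicted. 786-O is an established cell line derived from a human clear cell renal carcinoma. The study asked which miRNAs change when circSOD2, a circular RNA made from the SOD2 gene, is knocked down by a short hairpin RNA. The NC group (n = 4) received a control plasmid and the circSOD2-sh group (n = 4) a plasmid for the hairpin against circSOD2, both with a Lipofectamine reagent, and RNA was taken 48 h later according to the labels. The methods of the study describe lentiviral knockdown with puromycin selection instead, and which of its hairpins these libraries carried is not named. Small RNA libraries do not measure circSOD2, so the knockdown itself was not checked in these data. Nothing in the labels says that the 4 libraries of a group came from separate cultures, so the p-values measure the spread between these libraries, which may be technical.

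A miRNA hairpin is cut from a longer transcript, and its 5p and 3p arms form a duplex from which one strand is loaded into Argonaute to guide the silencing of mRNAs that match its seed. The other strand is usually degraded. Transcription of MIR210 is driven by the hypoxia-inducible factors HIF-1 and HIF-2, which the VHL protein marks for destruction when oxygen is present. 786-O cells have no functional VHL and no functional HIF-1 alpha, so HIF-2 is active in normal oxygen. The best known targets of miR-210-3p, the usual guide strand, include ISCU and other factors of mitochondrial respiration.

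The sequences are shown because both arms come from 1 hairpin and were counted separately. They are from RefSeq on GRCh38.p14, read 5′ to 3′, and capitals mark the seed (bases 2 to 8) in the mature strands.
hsa-miR-210-3p: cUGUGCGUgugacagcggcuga
hsa-miR-210-5p: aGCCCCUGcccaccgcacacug
In the hairpin, capitals mark the whole of the 5p arm and then the whole of the 3p arm.
MIR210 hairpin: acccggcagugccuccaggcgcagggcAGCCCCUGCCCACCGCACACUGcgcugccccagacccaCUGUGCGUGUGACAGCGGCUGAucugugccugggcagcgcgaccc

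The hairpin is encoded on the minus strand at chr11:568089-568198. In GENCODE release 29 on GRCh38 it lies in an intron of MIR210HG, a lincRNA gene at chr11:565660-568457 on the same strand. The arms lie at chr11:568112-568133 (3p) and chr11:568150-568171 (5p). Each mature strand has 22 bases, with a GC content of 63.6% for the 3p arm and 72.7% for the 5p arm. Neither seed was shared with any of the 1298 known miRNAs of the table that have a RefSeq sequence.

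The NC libraries held 6386872 to 9245044 counts each and the circSOD2-sh libraries 3743860 to 4208276. The known miRNAs accounted for 36.2% to 41.87% of a library in NC and for 95.07% to 96.46% in circSOD2-sh, and the remaining counts were on predicted miRNAs. Every level of miR-210 therefore depends on the total it is set against. The entries are not all separate. A predicted miRNA had the same counts as miR-28-5p in every library, and another the same as miR-339-5p. Among known miRNAs, miR-199a-3p and miR-199b-3p had the same counts. Totals, ranks, numbers of miRNAs tested and shares of calls may thus count the same reads more than once. How many entries repeated another was not tested. Normalized CPM here are counts divided by a library size that was scaled by TMM, the trimmed mean of M-values of edgeR, and written as CPM. NC replicate 4 and circSOD2-sh replicate 2 stood apart from the other 6 libraries in several lists of cell type markers. The summed kidney tubule markers (miR-192-5p, miR-194-5p, miR-215-5p and miR-204-5p, all 4 in the table) were at 1060 normalized CPM in NC replicate 4 and 300.0 to 399 in those 6 libraries. The 3 neural markers summed to 4960 in circSOD2-sh replicate 2 and 467 to 549 in the 6 libraries. The 2 stromal markers summed to 537 and 219 in NC replicate 4 and circSOD2-sh replicate 2, against 7.08 to 12.4. The 5 epithelial markers, the miR-200 family, were present in every library and summed to 4390 to 5820. Most of this sum was miR-200b-3p and miR-200a-3p, so it says little of the weak members. Of those, miR-141-3p and miR-200c-3p were highest in NC replicate 4. The changes of miR-210 are given with and without NC replicate 4 and circSOD2-sh replicate 2.

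miR-210-3p was a miRNA of modest level in this VHL-deficient line. It had 176, 156, 117 and 98 counts in NC replicates 1 to 4, and 82, 112, 75 and 86 counts in circSOD2-sh replicates 1 to 4. The exact 95% Poisson interval was 151.0 to 204 for the highest of these counts and 59.0 to 94.0 for the lowest, covering counting error only. Among the known miRNAs of each library it ranked 196, 207, 219 and 223 in NC and 252, 254, 250 and 246 in circSOD2-sh. The ranks of the groups did not overlap, with medians of 213 and 251, and a rank within a library does not change with its scaling. When predicted miRNAs were ranked too, the order of the groups turned, with median ranks of 358.5 in NC and 333 in circSOD2-sh. That ranking includes predicted miRNAs that repeat known ones. Between 894 and 1035 known miRNAs had at least 1 count in a library, and 73.14% to 78.9% of them lay below miR-210-3p. The most abundant known miRNA had 4670 to 7170 times the counts of miR-210-3p in NC and 7820 to 9480 times in circSOD2-sh.

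miR-210-5p was near the limit of detection. It had 8, 12, 11 and 4 counts in NC and 33, 26, 14 and 18 counts in circSOD2-sh, so that the lowest circSOD2-sh library lay just above the highest NC library. The exact 95% Poisson interval of the 4 counts in NC replicate 4 was 1.09 to 10.2, and that of the 33 counts in circSOD2-sh replicate 1 was 22.7 to 46.3. Its rank among known miRNAs was 467, 425, 431 and 520 in NC and 318, 400, 403 and 374 in circSOD2-sh. A count of 3, the limit that a count of 0 would allow, corresponded to 0.4597 to 0.6736 normalized CPM in these libraries.

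**Figure D1:**
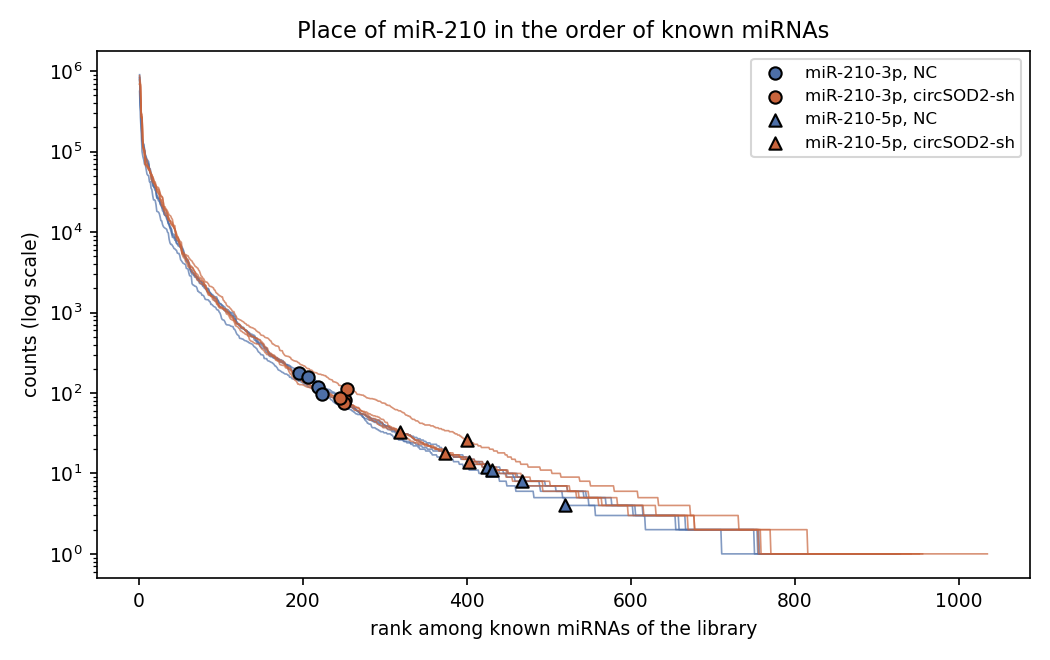
Counts (log scale) of the known miRNAs of each library against their rank, 1 line per library in blue for NC and orange for circSOD2-sh, with circles for miR-210-3p and triangles for miR-210-5p. The circles of NC lie at ranks 196 to 223 and those of circSOD2-sh at 246 to 254, and the triangles of circSOD2-sh lie to the left of those of NC.

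The miRNAs next to miR-210 in the order of mean normalized CPM could not be told apart from it by their spread. In NC the nearest above miR-210-3p (23.2 ± 3.0, SD, n = 4) was miR-301a-3p at 23.5 ± 1.96 and the nearest below was miR-128-1-5p at 22.9 ± 2.27. In circSOD2-sh the nearest were miR-15a-3p at 16.1 ± 1.54 and miR-889-3p at 16.0 ± 0.76, beside 16.0 ± 2.57 for miR-210-3p. The range of miR-210-3p over the libraries overlapped that of 48 known miRNAs in NC and 99 in circSOD2-sh. The same range lay wholly below 189 known miRNAs in NC and 204 in circSOD2-sh. For miR-210-5p the ranges of 236 known miRNAs in NC and 178 in circSOD2-sh overlapped its own. Counts of different miRNAs were not corrected for how well each sequence is ligated and amplified, so the order is one of reads.

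After TMM normalization miR-210-3p was lower and miR-210-5p higher in circSOD2-sh. miR-210-3p was at 26.97, 23.99, 19.93 and 22.01 normalized CPM in NC and at 13.92, 19.75, 15.03 and 15.28 in circSOD2-sh. The lowest NC library lay above the highest circSOD2-sh library by a small margin (p = 0.0286 in an exact two-sided permutation test, which 4 libraries against 4 cannot go below). The fitted log2 fold change, -0.54 with a standard error of 0.163, had an adjusted p of 0.0150 in edgeR's quasi-likelihood test with Benjamini-Hochberg adjustment over 895 miRNAs. Of these 895, 65.7% had an adjusted p under 0.05 in either direction, 33.3% higher and 32.4% lower in circSOD2-sh, and for 60.3% NC and circSOD2-sh were fully apart in normalized CPM. Most miRNAs tested in these libraries thus passed the same threshold as miR-210-3p. Without NC replicate 4 and circSOD2-sh replicate 2 the log2 fold change of miR-210-3p was -0.78 (adjusted p = 0.00124 from edgeR).

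miR-210-5p was at 1.23, 1.85, 1.87 and 0.898 normalized CPM in NC (1.46 ± 0.48, SD, n = 4). It was at 5.60, 4.59, 2.81 and 3.20 in circSOD2-sh (4.05 ± 1.29, SD, n = 4). The groups did not overlap (exact two-sided permutation test, p = 0.0286), and edgeR gave a log2 fold change of 1.44 with a standard error of 0.311 and an adjusted p of 0.00241. It passed the filter on low counts only through its level in circSOD2-sh, since its NC libraries, at 0.626 to 1.37 CPM of the listed total, were all under the cutoff of 1.888, so it could hardly enter the test without differing. The coefficient of variation of miR-210-5p in NC was 32.8%, where counting alone gives 33.8%. In circSOD2-sh it was 31.8%, above the 21.0% that counting alone gives. Without the pair of libraries that stood apart its log2 fold change was 1.15 (adjusted p = 0.0171 from edgeR).

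The direction of miR-210-3p depended on the scaling, whereas that of miR-210-5p did not in the 27 alternatives that gave it a value. As CPM of all listed counts miR-210-3p was at 16.6 ± 2.01 in NC and 22.3 ± 2.98 in circSOD2-sh (SD, n = 4 each), and as CPM of the known miRNA counts it was at 43.2 ± 7.28 and 23.3 ± 3.02. The groups did not overlap under either scaling, in opposite directions. With library totals in place of TMM its log2 fold change was 0.43 (adjusted p = 0.0299 from edgeR), and with totals of known miRNAs it was -0.89 (adjusted p = 0.00115 from edgeR). The scaling shifted the other miRNAs too. The median log2 fold change of the 895 miRNAs tested was -0.002 with TMM and 0.961 with library totals, and that of the 914 tested with known miRNA totals was -0.413. Relative to this median miR-210-3p was lower by -0.54 with TMM, -0.54 with library totals and -0.48 with known miRNA totals. miR-210-5p was higher by 1.44, 1.44 and 1.52 relative to the same medians. Another scaling moves all miRNAs by nearly the same amount, so these near-equal values follow from the arithmetic and say nothing of stability. The medians also cover predicted miRNAs and many miRNAs that were called, so they are not a neutral zero. The share of calls in each direction moved with them, from 298 higher and 290 lower with TMM to 613 and 158 with library totals and 204 and 420 with known miRNA totals.

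**Figure D2:**
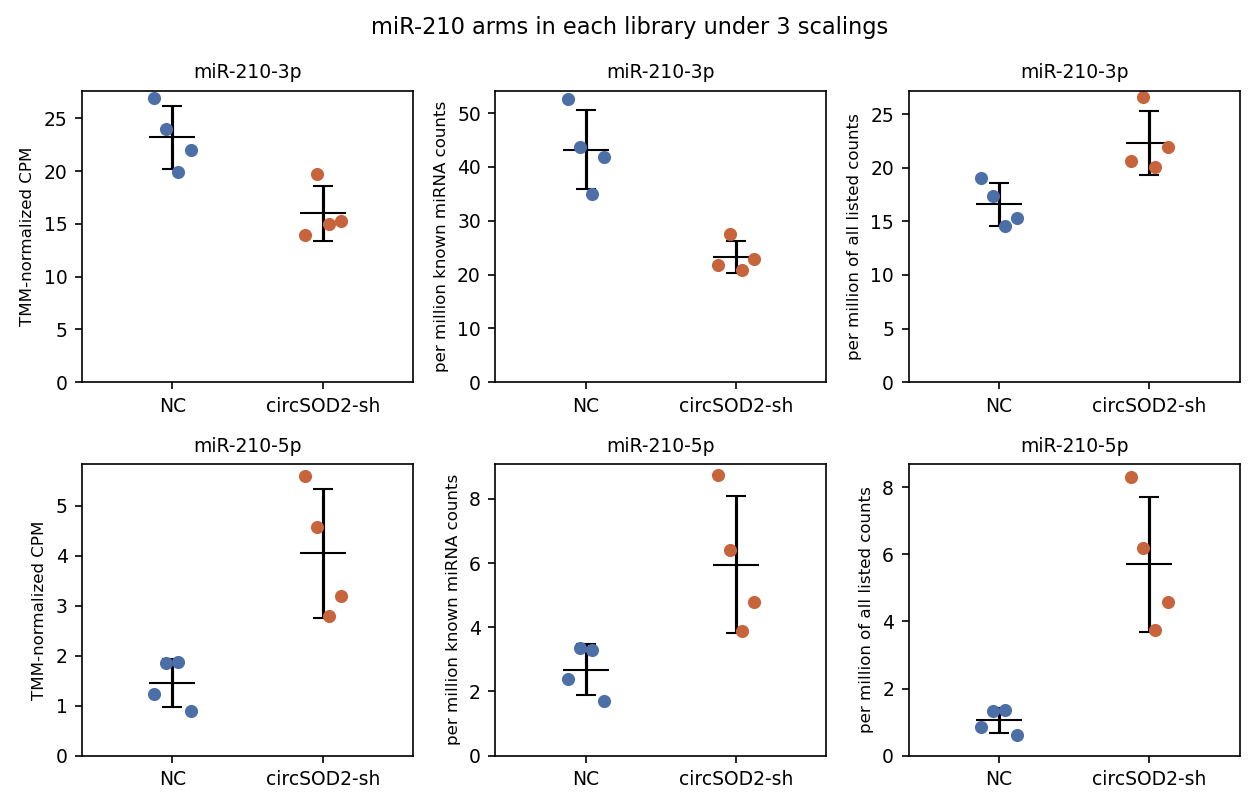
Levels of miR-210-3p (top) and miR-210-5p (bottom) in each library (points) with the mean and SD of 4 libraries (black), as TMM-normalized CPM, CPM of known miRNA counts and CPM of all listed counts. miR-210-3p is lower in circSOD2-sh in the left and middle panels and higher in the right one (16.6 against 22.3), while miR-210-5p is higher in circSOD2-sh in all of its panels.

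**Figure D3:**
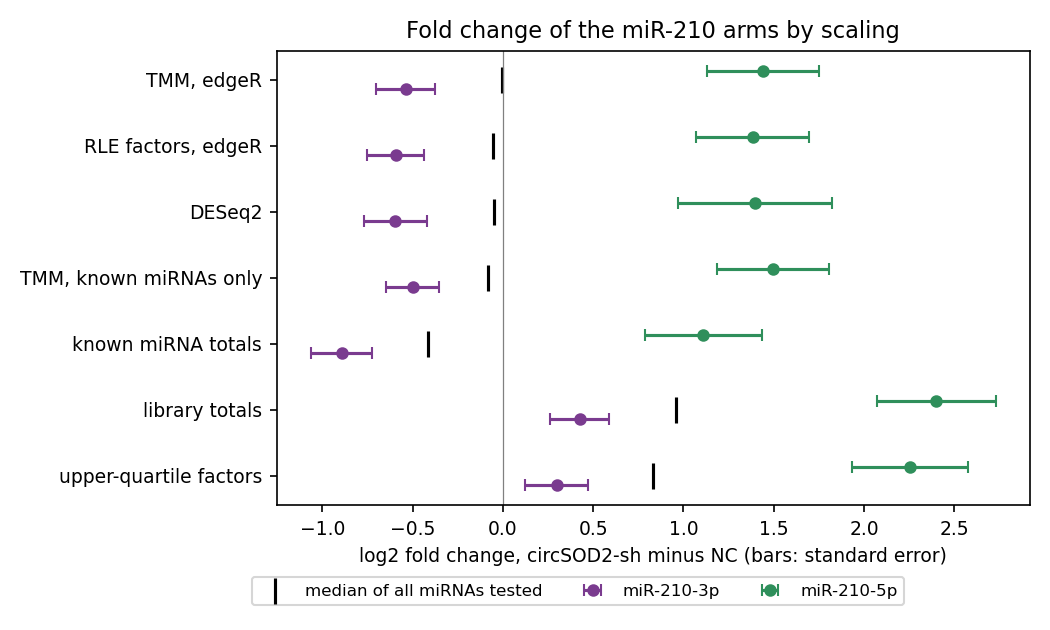
Log2 fold change (circSOD2-sh minus NC) of both arms with its standard error under 7 fits, beside the median of all miRNAs tested in the same fit (black bar). miR-210-3p moves from -0.89 to 0.43 and lies below the black bar in each fit, and miR-210-5p lies above it in each fit. Another scaling moves both arms and the bar nearly alike, so their distances are close to fixed by the arithmetic.

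Setting miR-210-3p against other miRNAs of the same library does not depend on the library's total. The 8 reference miRNAs, a list often used to normalize miRNA measurements (miR-16-5p, miR-191-5p, miR-103a-3p, miR-423-5p, miR-361-5p, miR-186-5p, miR-484 and miR-93-5p), gave a mean log2 count per library. Of them miR-103a-3p is also on the list of hypoxia-linked miRNAs below, and with TMM it counts as higher in both lists. Relative to this mean miR-210-3p was at -4.29, -4.45, -4.74 and -4.50 on the log2 scale in NC and at -5.46, -5.21, -5.51 and -5.41 in circSOD2-sh. All NC libraries lay above all circSOD2-sh libraries, with a difference of -0.90 (exact two-sided permutation test, p = 0.0286). Of the 8 references, 4 were higher, 1 was lower and 3 did not pass the test in edgeR with TMM, near the 65.7% called over all miRNAs tested. With library totals all 8 were higher, beside 68.5% of all miRNAs tested, and without circSOD2-sh replicate 3 (TMM) 2 were higher and 2 lower, beside 28.8% and 36.2%. The most abundant were miR-191-5p, at 16290 ± 936 normalized CPM in NC and 20880 ± 977 in circSOD2-sh, and miR-16-5p, at 8257 ± 373 and 5507 ± 587 (SD, n = 4 each). miR-484 changed most, with a log2 fold change of 2.43 (adjusted p = 8.99e-06 from edgeR), from 0.855 ± 0.275 to 4.70 ± 0.251 normalized CPM. Its NC libraries, at 0.615 to 1.23 normalized CPM, were under the filter cutoff of 1.888 CPM of the listed total. Like miR-210-5p, miR-484 passed that filter only through circSOD2-sh, so its call among the references that were higher says little. Its rise also enters the difference of -0.90. Without miR-423-5p and miR-484, a choice made after the data were seen, the difference was -0.69 (exact permutation p = 0.0286). Set against miR-16-5p alone the difference of miR-210-3p was 0.050 (exact permutation p = 0.771), against miR-423-5p alone -0.12 (exact permutation p = 0.229) and against miR-361-5p alone -0.60 (exact permutation p = 0.0571), and each of the other 5 alone gave a lower miR-210-3p in circSOD2-sh with no overlap. miR-484 was among these 5 and gave the largest difference, -2.93.

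The arms of the hairpin shifted towards 5p, a measure taken within each library. The 5p arm made up 4.35%, 7.14%, 8.59% and 3.92% of the counts of both arms in NC and 28.7%, 18.8%, 15.7% and 17.3% in circSOD2-sh. Each circSOD2-sh library lay above each NC library, and the mean rose from 6.0% ± 2.24 to 20.1% ± 5.86 (SD, n = 4 each). The 3p arm remained the larger one in all 8 libraries. The mean log2 ratio of 5p to 3p was -3.62 ± 0.451 in NC and -1.89 ± 0.444 in circSOD2-sh. The change of 1.73 (standard error 0.276) had an adjusted p of 0.000373 from limma over the 117 hairpins with both arms tested, of which 58.1% passed the same threshold. Of the 68 hairpins that passed, 36 gained 5p and 32 gained 3p, and the median change of all 117 was -0.0086 with a median absolute change of 0.601. miR-210 was in place 12 by signed change from the highest and in place 30 by absolute change. Because miR-210-5p passed the filter only through circSOD2-sh, its hairpin entered these 117 in the same way. Without NC replicate 4 and circSOD2-sh replicate 2 the change was 1.64 (adjusted p = 0.00422 from limma).

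Among the 42 hairpins whose 3p arm was the larger in NC, 18 gained 5p and 9 gained 3p past the threshold of limma, beside 36 and 32 of all 117. These 42 were picked by the NC ratio, which also enters the change, and a weak 5p arm could pass the filter through circSOD2-sh alone. The split may therefore come from the choice of hairpins and is given as a count only. With TMM, 21 of the 117 hairpins had arms that passed the edgeR test in opposite directions, 10 of them, miR-210 included, with 5p higher and 3p lower. With library totals 2 of the 21 were still opposite, and miR-210 was not among those, since both of its arms were then higher.

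**Figure D4:**
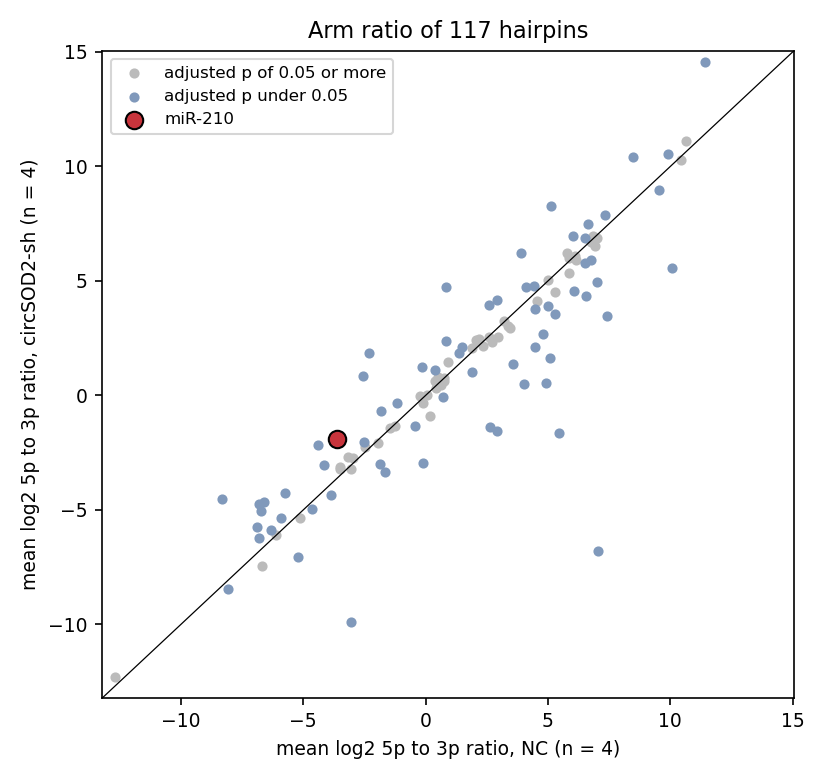
Mean log2 ratio of 5p to 3p in circSOD2-sh against that in NC (n = 4 each) for 117 hairpins, blue where limma gave an adjusted p under 0.05, grey otherwise, with the line of equal ratios. miR-210 (red) lies above the line, at -3.62 in NC and -1.89 in circSOD2-sh.

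Other miRNAs linked to hypoxia were split in direction with TMM, near the split of all known miRNAs, and were all higher with library totals, as miR-210-3p was. Of 15 listed miRNAs, reported by others to be induced by low oxygen, 14 were in the table and all 14 were tested. 5 rose, 5 fell and 4 did not pass the test (edgeR with TMM), with a median log2 fold change of -0.074, beside -0.11 over the 463 known miRNAs tested, of which 125 (27.0%) rose and 132 (28.5%) fell. With library totals all 14 were higher, as were 76.7% of the known miRNAs. Without circSOD2-sh replicate 2 (TMM) 4 rose and 8 fell, beside 23.9% and 38.2% of the known miRNAs. In every library 12 of the 14 had more counts than miR-210-3p, and 1, miR-155-5p, had fewer. The most abundant were miR-27a-3p, which fell from 19720 ± 241 to 12890 ± 1160 normalized CPM (log2 fold change -0.61, adjusted p = 3.55e-05 from edgeR), and miR-26a-5p, which rose from 13380 ± 674 to 19080 ± 967 (0.51, adjusted p = 6.38e-05). miR-23a-3p, encoded in 1 cluster with miR-27a, was at 567 ± 49.0 normalized CPM in NC and 7943 ± 1180 in circSOD2-sh, a log2 fold change of 3.81 (adjusted p = 2.43e-09 from edgeR). Its close relative miR-23b-3p rose from 308 ± 28.2 to 616 ± 68.2 normalized CPM (1.00, adjusted p = 1.54e-05 from edgeR). These sequences are near-identical, and how the counting divided reads between them is not given in the sources used here.

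The list of miRNAs known to target HIF1A, EPAS1 (the gene of HIF-2 alpha) or VHL held 12 miRNAs, of which 10 were tested. 5 rose, 0 fell and 5 did not pass the test, with a median log2 fold change of 0.21 (edgeR with TMM), beside 27.0% higher, 28.5% lower and a median of -0.11 among the known miRNAs tested. With known miRNA totals 3 rose and 3 fell (19.9% and 48.8% of the known miRNAs), and with library totals 9 rose and 0 fell (76.7% and 2.59%). Without circSOD2-sh replicate 3 (TMM) 3 rose and 1 fell (23.1% and 34.0%). miR-92a-3p rose from 2393 ± 114 to 7704 ± 198 normalized CPM (log2 fold change 1.69, adjusted p = 6.11e-09 from edgeR). miR-17-5p rose from 1751 ± 134 to 2456 ± 331 (0.49, adjusted p = 0.00241 from edgeR) and miR-20a-5p from 1066 ± 128 to 2400 ± 393 (1.17, adjusted p = 2.71e-05). miR-20b-5p, which was less abundant than miR-210-3p in NC, rose from 7.87 ± 1.72 to 16.3 ± 2.57 (1.05, adjusted p = 0.00109 from edgeR). miR-145-5p and miR-519c-3p did not pass the filter on low counts.

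**Figure D5:**
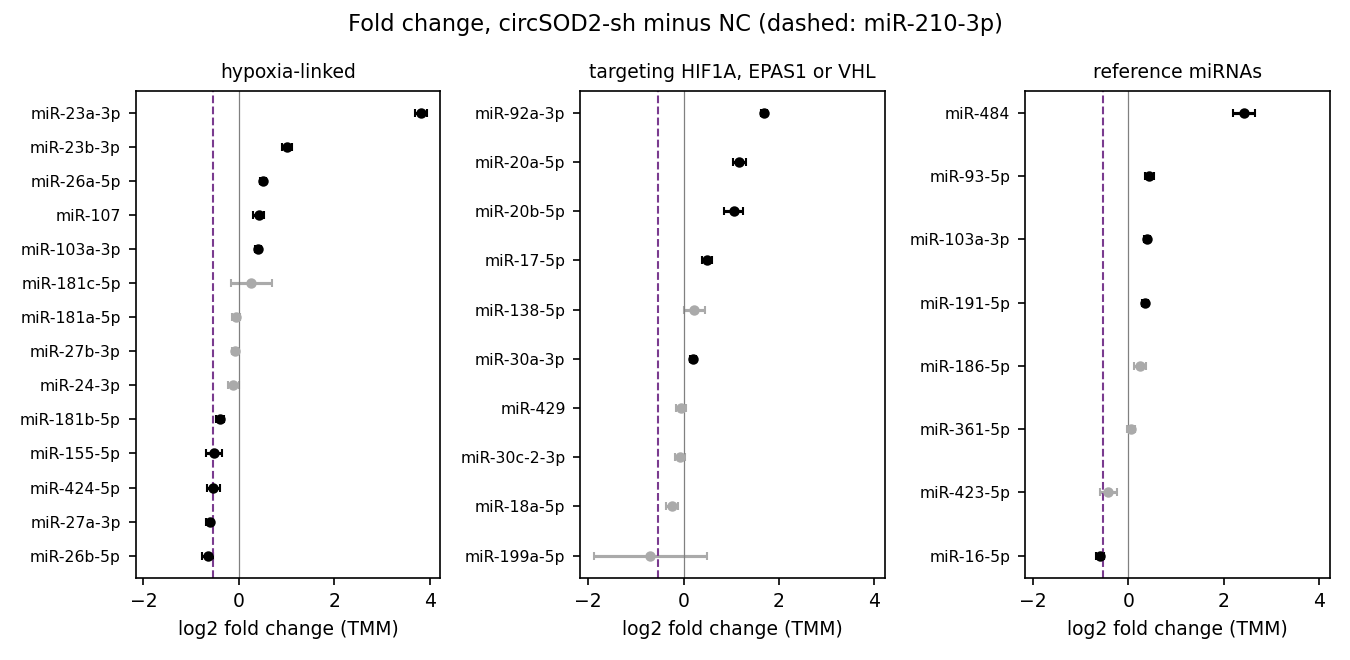
Log2 fold change (circSOD2-sh minus NC, TMM) with its standard error for the tested members of the 3 lists, black where edgeR gave an adjusted p under 0.05 and grey otherwise, with a dashed line at miR-210-3p (-0.54). Hypoxia-linked miRNAs lie on both sides of 0, from -0.65 for miR-26b-5p to 3.81 for miR-23a-3p.

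The known miRNAs whose levels followed miR-210-3p most closely over the 8 libraries were miR-148a-5p, miR-27a-3p, miR-32-5p, miR-130a-3p and miR-130b-3p. The measure was the root mean square difference of the centred log2 normalized CPM, over 247 known miRNAs with a mean of at least 100 counts. It was 0.0853 for miR-148a-5p and 0.126 to 0.136 for the other 4, against a median of 0.329. Of these only miR-27a-3p is on a list above. Their log2 fold changes with TMM were -0.61 to -0.31, beside -0.54 for miR-210-3p, and a like shift between the groups lowers the measure. Counting alone gives miR-210-3p a coefficient of variation of 8.55% in NC and 10.6% in circSOD2-sh, so the order among the named miRNAs is not resolved.

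Bases complementary to the miR-210 seeds were searched for in circSOD2 and motifs of HIF in the promoter of the host gene, as descriptions of sequence. The ring was rebuilt from 5 SOD2 transcripts of GENCODE release 29 by joining the ends that the hairpin sequences of the study's supplement cross, with its length limited to the range around that of circSOD2. This gave 1 ring of 462 bases, whose junction both hairpins crossed. It held 0 matches to ACGCACA, which is complementary to the seed of miR-210-3p. It likewise held 0 matches to CAGGGGC, the complement of the miR-210-5p seed, and 0 to the complements of bases 2 to 7 of either strand. In the promoter of MIR210HG (250 bases before to 50 after its start, RefSeq, GRCh38.p14, chr11:568408-568707, minus strand) there was 1 ACGTG and 1 GCGTG, the core letters of HIF response elements, counting both strands. Of 35116 promoters of this length, 21.4% held at least 1 ACGTG and 36.5% at least 1 GCGTG.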

How the data were processed

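Small RNA of 4 NC and 4 circSOD2-sh libraries of 786-O cells was sequenced on an Illumina platform after ligation of adapters to both ends. The deposited count of each mature miRNA is unnormalized per the file headers and values, and the authors also deposited CPM scaled to larger totals than the listed counts. Another deposited table holds the authors' comparison (mean CPM, fold changes, p-values, q-values and calls) and was not used. The submitters' processing notes name FastQC 0.11.2, Trimmomatic 0.36, Bowtie 1.1.1 and GRCh38. The counting tool and the miRNA annotation are not given in the sources used here. Columns were matched to samples by name.

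Differences in counts were estimated with edgeR 4.0.16 in R 4.3.3 (filterByExpr with a minimum count of 10, TMM, quasi-likelihood test, prior count of 0.125, Benjamini-Hochberg adjustment over 895 miRNAs). Arm ratios were tested with limma 3.58.1 after adding 0.5 normalized CPM to each arm, and reference ratios used counts plus 0.5. Permutation tests used log2 of the level plus 1. Alternatives were DESeq2 1.42.0, other scalings, filters, prior counts and added constants, limma on the deposited CPM, known miRNAs only, a replicate block and libraries left out. TMM with other reference libraries, and a reference list without miR-423-5p and miR-484, were added after the data were seen. Scripts were first tested on simulated data. Python 3.11.15, scipy 1.17.1, pandas 2.3.3 and matplotlib 3.10.9 made the tables and figures. Sequences are from RefSeq (GRCh38.p14) and gene models from GENCODE release 29 (GRCh38).

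Each library held 6386872 to 9245044 counts (NC) or 3743860 to 4208276 (circSOD2-sh). No pair of libraries of a group agreed within sampling noise (chi-square per degree of freedom 11.4 to 162). The members and lists were chosen with earlier results of these data known. From each list the 2 most abundant miRNAs are named, with any that had an adjusted p under 0.05 and an absolute log2 fold change over 1. The 5 miRNAs most like miR-210-3p are named too, and those next to it in order. Of the other marker lists, the leukocyte list (4 miRNAs) summed to 17.1 normalized CPM in NC replicate 4, 14.6 in circSOD2-sh replicate 2 and 1.19 to 3.21 in the other 6 libraries. In the same order the erythroid list (3) was at 170.0, 58.6 and 21.6 to 42.3, and the endothelial list (2) at 650.0, 511 and 262 to 348. The muscle list (4) was at 47.4, 19.6 and 9.37 to 30.4, and miR-122-5p of liver at 5.39, 2.29 and 1.36 to 5.82.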

Additional observations from a re-analysis of the deposited data

Results flagged for a closer look

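In 73 groups of 4 libraries (the members of the lists, both miR-210 arms and their measures) 5 held a library far from the other 3 by Dixon's criterion, where chance gives about 3.65. No measure of miR-210 was among the 5. In circSOD2-sh replicate 2, the normalized CPM of miR-181c-5p was 30.2, where the other 3 had 7.30 to 9.42, that of miR-145-5p was 16.9 (0.601 to 1.02 in the other 3) and that of miR-16-5p 6380 (5170 to 5310). In NC replicate 4, the normalized CPM of miR-199a-5p was 132 (3.69 to 6.90 in the other 3) and that of miR-145-5p 41.3 (0.306 to 0.615). These are the libraries that stood apart in lists of cell type markers. Their part in these values was not tested.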

How the results depend on the processing

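The log2 fold change of miR-210-3p kept its direction and an adjusted p under 0.05 in 24 of 28 alternatives. Many of the 28 kept TMM, among them 8 with single libraries left out and 7 with another TMM reference. Their agreement does not bear on the scaling. Each fit in which the direction turned used a scaling other than TMM. The fold change turned to 0.425 with library totals (adjusted p = 0.0299, edgeR), 0.298 with upper-quartile factors (0.137), 0.267 with limma on log2(CPM + 1) (0.0961) and 0.281 with limma on log2(CPM + 0.1) (0.103). With single libraries left out it lay between -0.762 and -0.505 (adjusted p from 0.00172 to 0.0331). That of miR-210-5p was 1.11 to 2.40 over 27 alternatives and not tested with a mean of at least 50 counts, and the change of the arm ratio was 1.28 to 1.95 over 13. All but the fit with no filter on low counts used a filter that miR-210-5p passed only through circSOD2-sh, so their repeated calls say little of stability. In that fit miR-210-5p had a log2 fold change of 1.42 (adjusted p = 0.00501, edgeR). The 588 calls became 246 with known miRNAs only and 361 with a mean of at least 50 counts, and lay between 537 and 661 with single libraries left out.

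Relative to the references the difference of miR-210-3p was 0.0498 against miR-16-5p alone, -0.121 against miR-423-5p alone and -0.600 against miR-361-5p alone. It was -0.963 without NC replicate 4 and circSOD2-sh replicate 2 (exact permutation p = 0.1) and -0.981 to -0.830 with single libraries left out (exact permutation p = 0.0571). Both p-values are the smallest these numbers of libraries allow and say nothing of stability. Without miR-423-5p and miR-484 it was -0.691. Median ranks with predicted miRNAs included were 358.5 in NC and 333 in circSOD2-sh.

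The deviations of same-numbered libraries from their group means had correlations of 0.294, -0.227, 0.159 and -0.265. Those of differently numbered libraries were between -0.368 and 0.345. So few values cannot tell whether same-numbered libraries shared a culture or batch, and no pairing was assumed. With a replicate block the log2 fold changes were -0.541 for miR-210-3p (adjusted p = 0.0265, edgeR) and 1.45 for miR-210-5p (0.00736), the change of the arm ratio was 1.73, and 574 miRNAs were called. At 4 to 33 counts, the depth of miR-210-5p limits its fold change.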

Other observations

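Both miR-210 arms are rich in G and C, and classes of GC content, chosen after the values were seen, give the setting. Of 304 known miRNAs with a GC content of 60% or more, 61 were tested with TMM, of which 26 were higher and 14 lower in circSOD2-sh, with a median log2 fold change of 0.38, beside 125 higher, 132 lower and a median of -0.11 among all 463 known miRNAs tested. Of the 91 tested with less than 40%, 11 were higher and 18 lower, with a median of -0.16. The classes between had medians of -0.12 (40% to under 50%, 126 tested) and -0.17 (50% to under 60%, 125 tested). With library totals the highest class had 50 higher and 4 lower of 61 and a median of 1.35, beside 355, 12 and 0.85 for the known miRNAs. With known miRNA totals it had 19 higher and 21 lower of 60 and a median of -0.23, beside 92, 226 and -0.48. The tested miRNAs of the highest class had a median of 6.8 normalized CPM in NC and 13.9 in circSOD2-sh, and 24 of the 61 lay above miR-210-3p by mean level. At such levels a miRNA could pass the filter on low counts through circSOD2-sh alone. How many of the 61 did so was not tested. The excess of higher over lower in this class may therefore come from the filter and is given as a count only.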
